A study of Mus musculus with 2 samples.

Results

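Genes of DNA replication and deoxynucleotide supply were compared between the livers of mice that received a virus for overexpression of miR-378, a microRNA, by its label (Ad-378) and of mice that received a control adenovirus (Ad-Ctrl). They are 45 genes taken from a list by symbol, covering origin licensing, the replication fork, the DNA polymerases and the enzymes that make DNA precursors, out of 20652 gene symbols with a probe. Of the 45, 42 were well above background on both arrays, among 14288 genes in all for which that held. Orc1 and Cdc6 were above background in the Ad-Ctrl pool only, and Cdc7 in neither pool.

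All mice were male, and 1e9 plaque forming units of adenovirus went into the tail vein when they were 8 weeks old. Each group was 1 pool of livers of 5 mice, hybridised to 1 single-colour Agilent array, so a group had no replicates and no p-value is given. Livers were taken 2 weeks after injection according to the protocols, although the description of the Ad-378 pool gives 3 weeks, so a difference in time after injection and the virus cannot be told apart. Strain, the promoter of the virus and the insert of the control virus are not given in the sources used here. The labels describe RNA extraction with a blood RNA kit and globin reduction, although the tissue is named as liver.

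In a cell that divides, the origin recognition complex loads the Mcm2-7 helicase onto DNA with the help of Cdc6 and Cdt1. The kinase Cdc7-Dbf4, Cdc45 and the GINS complex then turn this helicase on, and polymerases alpha, delta and epsilon copy the strands around the sliding clamp PCNA. Most of these genes are controlled by E2F factors and are transcribed around the start of S phase. Adult hepatocytes are mostly quiescent, and replication genes are known to come on in liver after injury or partial hepatectomy.

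Of the 42 measured genes, 39 had a lower level in the Ad-378 pool, and 16 were at least 2-fold lower. No gene of the set was at least 2-fold higher. Over all measured genes, 46.1% had a lower level in the Ad-378 pool, 4.52% were at least 2-fold lower and 2.83% at least 2-fold higher. The median log2 difference, Ad-378 minus Ad-Ctrl, was -0.78 for the 42 genes and 0.04 for all measured genes. At a 3-fold threshold 10 of the 42 genes were lower, against 1.41% of all genes, with 0.742% of all genes higher. At 1.5-fold 27 were lower and 1 was higher (Mcm10), where 12.1% of all genes were lower and 8.78% higher. Of the 42 genes, 16 lay among the lowest 5% of all measured genes.

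Values below are log2 differences of processed spot signal, each array set to its 75th percentile, with a scanner error of 0.20 to 0.29 taken from the error deposited for both spots. This error covers measurement on the array alone, not the spread between mice or pools. By that yardstick, 31 genes of the set were lower beyond the 95% range of the scanner error, 1 was higher, and for 10 the range included 0. Of all measured genes, 17.7% were lower and 16.3% higher beyond the same range. In whole liver RNA, fewer cells of a type and less RNA per cell cannot be told apart.

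**Figure D1:**
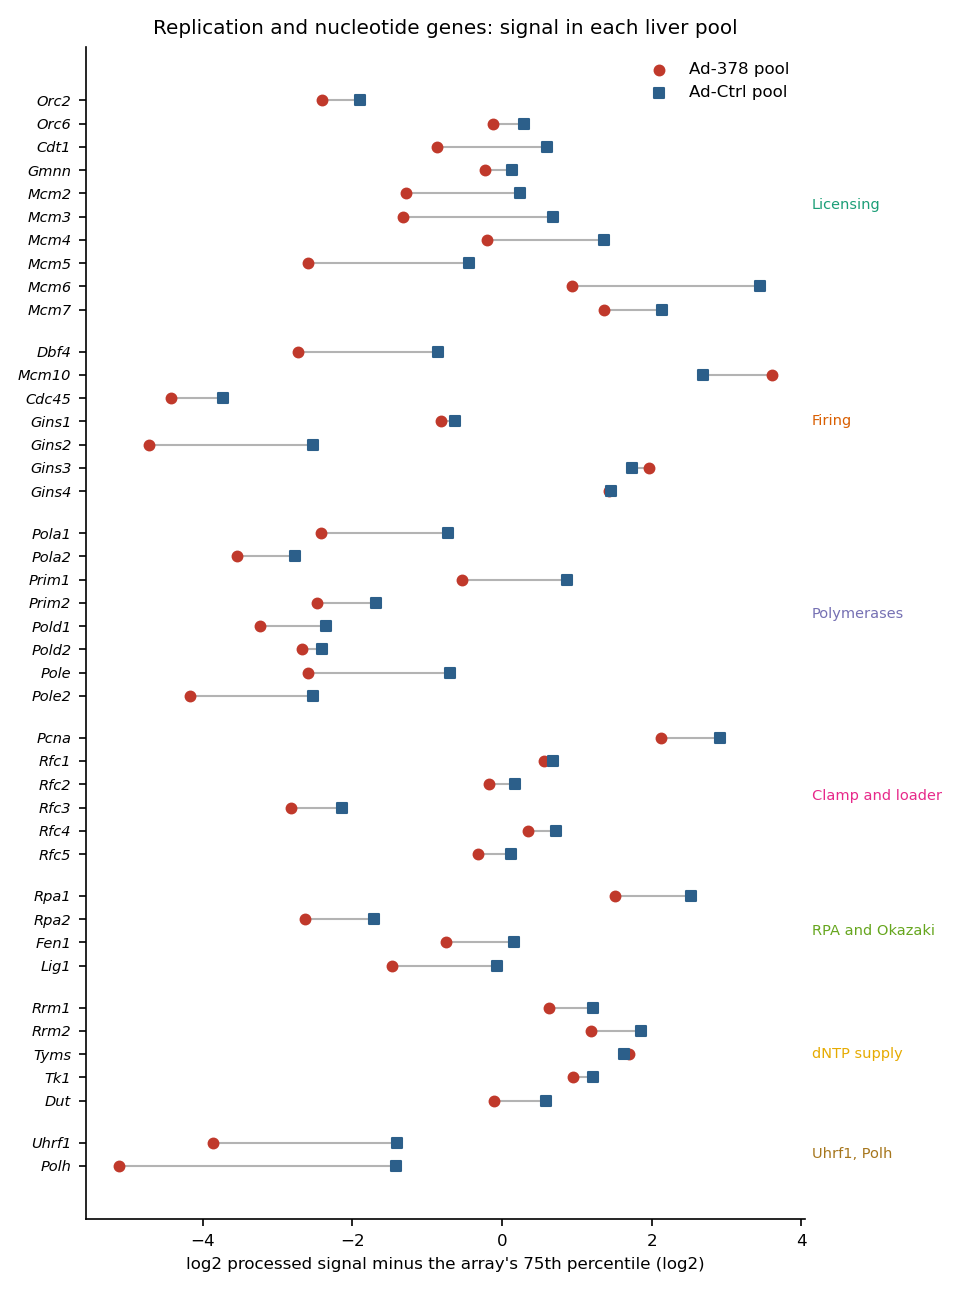
Scaled log2 signal (relative to the array's 75th percentile) of the 42 genes measured in both pools, by role. Circles are the Ad-378 pool and squares the Ad-Ctrl pool, 1 array each; positions along the axis compare pools within a gene, not 1 gene with another. The circle lies left of the square for 39 genes, furthest for Polh, and right of it for Mcm10, Gins3 and Tyms.

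The origin licensing genes lay lowest of the larger role groups. All 10 measured members had a negative difference, 6 of them at least 2-fold, with a median of -1.50, and only the scanner range of Gmnn included 0. The Mcm2 to Mcm7 genes, which encode the 6 different subunits of the replicative helicase, gave 5 of those 6. The sixth was Cdt1, the loading factor that brings the helicase to the origin.

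Mcm6 had a processed signal of 1329 in the Ad-378 pool, against 8711 in the Ad-Ctrl pool, which is 5.70-fold lower after scaling (log2 difference -2.51). Mcm5 gave 115 in the Ad-378 pool and 589 in the Ad-Ctrl pool (-2.15), and Mcm3 gave 279 and 1280 in the same order of pools (-2.00). Each of these 3 subunit genes was at least 3.99-fold lower with Ad-378. Mcm4, whose subunit carries part of the core helicase activity, had 604 in the Ad-378 pool, against 2056 in the Ad-Ctrl pool (-1.56). Mcm2 had 285 in the Ad-378 pool and 949 in the Ad-Ctrl pool (-1.53). Mcm7 was the least different subunit gene, with 1782 in the Ad-378 pool and 3536 in the Ad-Ctrl pool (-0.79).

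The subunits act together in equal numbers, but their RNA differences did not coincide. The difference of Mcm6 was lower than that of Mcm7 by a log2 value of -1.72, with a 95% scanner range of -2.29 to -1.16. Mcm3 stood apart from Mcm7 by -1.21 (-1.78 to -0.65). The gap between Mcm5 and Mcm2 was -0.61, with a range of -1.18 to -0.04, and was -0.31 with the series matrix and -0.30 with normexp.

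Cdt1 had a signal of 382 in the Ad-378 pool, against 1216 in the Ad-Ctrl pool (-1.47). Gmnn encodes geminin, the inhibitor that binds Cdt1 and blocks relicensing, and its signals of 596 with Ad-378 and 878 with Ad-Ctrl differed by -0.36, inside the scanner range. The difference of Cdt1 was thus lower than that of its inhibitor by -1.11 (-1.68 to -0.54). Among the origin recognition genes, Orc2 differed by -0.51 and Orc6 by -0.41. Orc1, the subunit gene whose level follows the cell cycle, had a dim signal of 9.40 in the Ad-378 pool that was not well above background, against 22.6 in the Ad-Ctrl pool. The bound for Orc1 was 1.73-fold lower, and the 95% scanner range of its log2 difference (-1.06) was -1.97 to -0.15. Cdc6, the ATPase that loads the helicase with Cdt1, was likewise not above background with Ad-378 (11.5) and dim with Ad-Ctrl (24.3). Its bound of 1.83-fold lower is the probe's own ratio. The 95% scanner range of that log2 difference (-0.87) was -1.78 to 0.03 and included 0. Another Cdc6 probe, at 5.75 with Ad-378 and 3.60 with Ad-Ctrl, was above background in neither pool. These bounds take as the Ad-378 level the probe's own value or the faintest signal counted as detected, whichever was higher. They leave the scanner error out.

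Promoter windows of the 3 helicase genes with the largest differences are shown first, with the words matching E2F sites in capitals. Pola1 is added because its window holds 4 such words, Mcm10 because it differed in the other direction, and Polh because it had the largest difference of the set as reported. Sequences are from RefSeq, build GRCm38.p6, and run from 250 bases before to 50 bases after the annotated start, 5′ to 3′ in the direction of the gene.
Mcm6, chr1:128359656-128359955, minus strand: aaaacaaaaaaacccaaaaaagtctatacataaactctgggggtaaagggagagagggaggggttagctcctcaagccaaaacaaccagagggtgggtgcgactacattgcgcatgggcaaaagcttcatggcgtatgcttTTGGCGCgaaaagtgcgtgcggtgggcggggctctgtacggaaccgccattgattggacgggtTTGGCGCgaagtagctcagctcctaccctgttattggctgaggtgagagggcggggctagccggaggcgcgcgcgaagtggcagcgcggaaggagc
Mcm5, chr8:75109259-75109558, plus strand: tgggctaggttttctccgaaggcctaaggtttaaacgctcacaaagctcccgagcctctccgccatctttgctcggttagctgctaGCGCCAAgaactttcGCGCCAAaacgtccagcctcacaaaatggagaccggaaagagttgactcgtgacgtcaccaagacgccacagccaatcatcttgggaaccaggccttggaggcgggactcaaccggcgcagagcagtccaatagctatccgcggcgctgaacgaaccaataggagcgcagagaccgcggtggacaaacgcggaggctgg
Mcm3, chr1:20820263-20820562, minus strand: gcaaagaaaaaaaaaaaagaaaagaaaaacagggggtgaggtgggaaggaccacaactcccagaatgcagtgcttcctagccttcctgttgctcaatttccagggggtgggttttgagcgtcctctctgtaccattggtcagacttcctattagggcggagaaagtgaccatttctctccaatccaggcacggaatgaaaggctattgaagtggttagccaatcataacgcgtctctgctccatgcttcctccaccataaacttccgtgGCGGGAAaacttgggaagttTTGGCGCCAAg
Pola1, chrX:93632106-93632405, minus strand: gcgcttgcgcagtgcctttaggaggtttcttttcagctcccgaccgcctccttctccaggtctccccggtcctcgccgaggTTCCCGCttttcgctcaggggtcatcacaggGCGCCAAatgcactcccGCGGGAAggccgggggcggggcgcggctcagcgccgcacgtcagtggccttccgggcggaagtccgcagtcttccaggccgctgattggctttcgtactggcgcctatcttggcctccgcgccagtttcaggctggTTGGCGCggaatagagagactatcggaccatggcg
Mcm10, chr2:5012742-5013041, minus strand: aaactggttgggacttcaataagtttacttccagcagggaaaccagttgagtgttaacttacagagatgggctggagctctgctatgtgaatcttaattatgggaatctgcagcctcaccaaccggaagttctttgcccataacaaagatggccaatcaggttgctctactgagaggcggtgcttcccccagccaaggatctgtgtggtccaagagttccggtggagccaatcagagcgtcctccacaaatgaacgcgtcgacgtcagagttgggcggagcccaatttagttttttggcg
Polh, chr17:46202592-46202891, minus strand: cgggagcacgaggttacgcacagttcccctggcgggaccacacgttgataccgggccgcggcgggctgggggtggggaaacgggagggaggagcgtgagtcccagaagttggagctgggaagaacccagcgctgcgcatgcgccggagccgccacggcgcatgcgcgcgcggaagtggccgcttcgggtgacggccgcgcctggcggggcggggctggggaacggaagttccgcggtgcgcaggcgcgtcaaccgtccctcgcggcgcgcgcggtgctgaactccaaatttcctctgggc

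Mcm6 and Mcm5 each held 2 E2F-type words. The pair in Mcm6 began 109 and 46 bases before the annotated start, and the pair in Mcm5 164 and 149 bases before it. Mcm3 held 3 words within the 50 bases after the start, the last 2 of which overlap. No word was found in the windows of Mcm10 and Polh, which says only that these letters are not in those windows.

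Windows were given for 37 of the 45 genes, 45 windows in all. The words searched were TTCCCGC and TTGGCGC on both strands, and 19 of the 37 genes (51.4%) had at least 1 of them in a window. Among 26988 other genes in the table the share was 7.73%, and 6.81% of all 32851 windows held a word. CCAAT, the NF-Y box, stood in 59.5% of the genes of the set and 41.0% of other genes. Its reverse shares letters with TTGGCGC, so matches of both kinds can overlap. The GC box GGGCGG stood in 75.7% and 38.2% of the same sets, and TTTGAA, a core of the CHR element of mitotic genes, in 18.9% and 20.2%. The windows of the set had a median GC content of 60.0%, against 52.7% for all windows, and its part in these shares was not tested.

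Of the 17 measured genes with an E2F-type word, 9 were at least 2-fold lower, with a median of -1.40. Of the 17 measured genes with a window and no such word, 4 were at least 2-fold lower, with a median of -0.70. Those 4 were Polh, Dbf4, Mcm2 and Rpa1. Rfc1 held 2 overlapping words and differed by -0.13. By word, the 9 measured genes with TTGGCGC had a median of -1.64 and the 25 without it -0.70, whereas the 12 with TTCCCGC had -0.91 and the 22 without it -0.73. These splits are descriptions and were not tested.

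**Figure D2:**
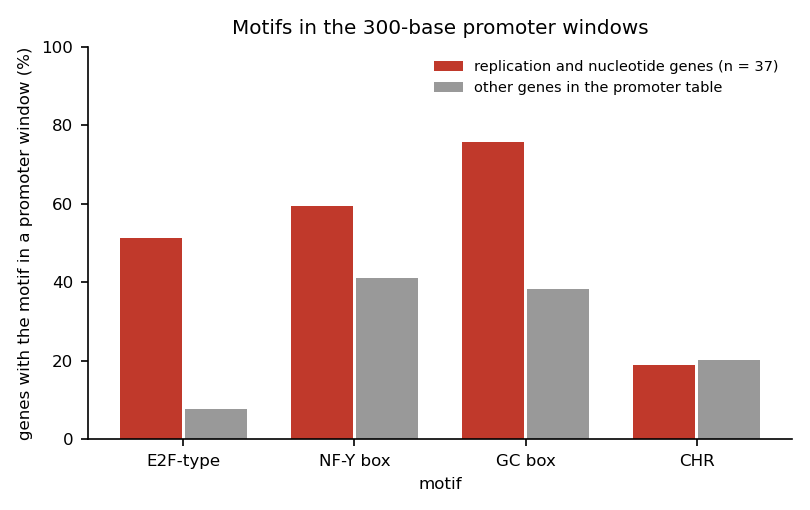
Percentage of genes with a motif in a promoter window of 300 bases, for the 37 replication and nucleotide genes with a window and for the other genes of the table. E2F-type words stood in 51.4% of the set and 7.73% of other genes, whereas the CHR word was about equally frequent at 18.9% and 20.2%.

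Genes of origin firing were split. Dbf4 and Gins2 were far lower with Ad-378, whereas the other GINS genes were close to the Ad-Ctrl level and Mcm10 was higher. The group had 7 measured members with a median of -0.19, of which 2 were at least 2-fold lower.

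Dbf4, the regulatory subunit of the Cdc7 kinase, had a signal of 105 in the Ad-378 pool, against 441 in the Ad-Ctrl pool (-1.86). Its partner Cdc7 gave signals of 4.01 or less in both pools at 2 probes, not above background, so no difference can be given. Cdc45, which travels with the helicase, had 32.5 with Ad-378 and 60.5 with Ad-Ctrl (-0.70).

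The GINS complex holds 4 subunits in equal numbers and joins Cdc45 and Mcm2-7 in the active helicase. Gins2 had a signal of 26.4 in the Ad-378 pool, against 139 in the Ad-Ctrl pool (-2.19). Gins1 had 394 and 518 (-0.19), Gins4 1875 and 2203 (-0.03), and Gins3 2703 and 2671 (0.22), each with the Ad-378 pool given first. The ranges of these last 3 genes included 0. The difference of Gins2 was lower than that of Gins3 by -2.41, with a 95% scanner range of -3.03 to -1.78. That gap was -1.44 with the series matrix and -1.27 with normexp. Gins2 was dim, and its own difference was -1.22 on the deposited series matrix values and -1.05 after normexp background correction.

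Mcm10 helps to switch the helicase on and binds polymerase alpha, and was the only gene of the set higher beyond the scanner error. It had a signal of 8490 in the Ad-378 pool and 5152 in the Ad-Ctrl pool, 1.90-fold higher (0.92). The other settings gave 0.80 to 0.93, all inside 2-fold. A single probe measured it, as for most genes of the set. In the Ad-378 pool its signal was the highest of the set, above that of Pcna (3036). Whether the probe reports Mcm10 alone was not tested.

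**Figure D3:**
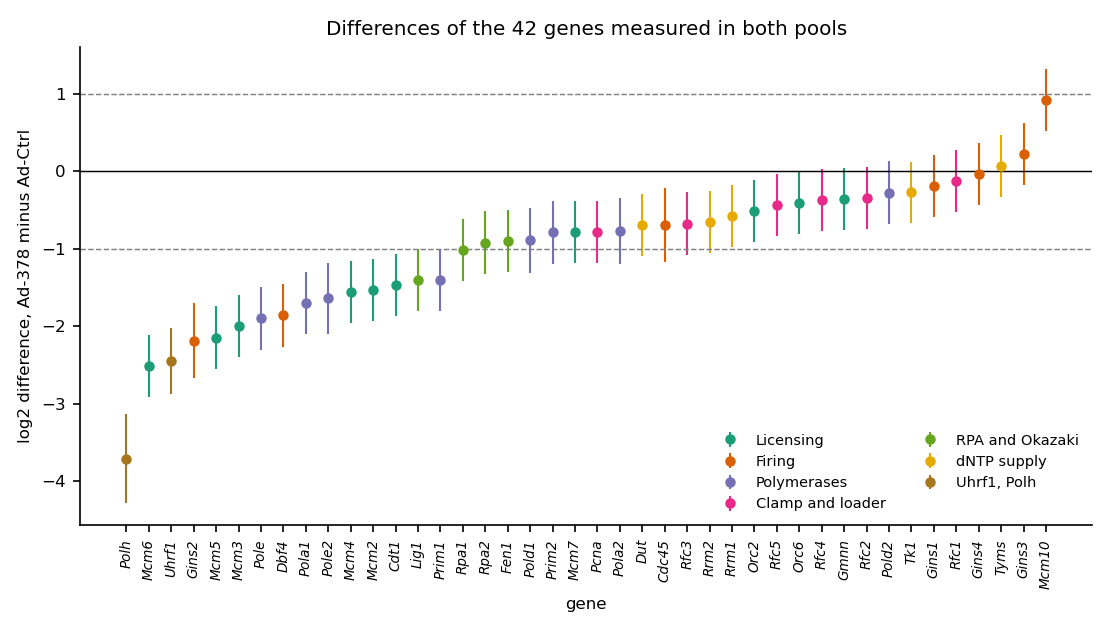
Log2 difference (Ad-378 minus Ad-Ctrl) of each of the 42 measured genes, ordered from lowest to highest and coloured by role. Bars are the 95% range of the scanner error, not of mice, and dashed lines mark 2-fold. Polh lies lowest at -3.71, 16 genes lie below the lower dashed line, and Mcm10 lies highest at 0.92.

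All 8 replicative polymerase and primase genes had a negative difference, 4 of them at least 2-fold, with a median of -1.15. The scanner range of Pold2 included 0. In each of polymerases alpha and delta the catalytic subunit gene had the lower difference. Pola1, the catalytic subunit of polymerase alpha, had a signal of 130 with Ad-378 and 485 with Ad-Ctrl (-1.70). Pola2, its accessory subunit, had 59.7 with Ad-378 and 117 with Ad-Ctrl (-0.77), and the gap between the 2 differences was -0.93 (-1.52 to -0.34). Primase starts each new strand with RNA, and its catalytic subunit gene Prim1 had 480 in the Ad-378 pool, against 1455 in the Ad-Ctrl pool (-1.40). Prim2, the large primase subunit, differed by -0.79.

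Pole, the catalytic subunit of the leading strand polymerase epsilon, had a signal of 115 in the Ad-378 pool, against 493 in the Ad-Ctrl pool (-1.90). Another probe for Pole, at 4.39 with Ad-378 and 9.23 with Ad-Ctrl, was not above background. Pole2, its second subunit, had 38.6 with Ad-378 and 139 with Ad-Ctrl (-1.64), and lay inside 2-fold with the series matrix (-0.95) and with normexp (-0.87). Pold1 and Pold2, of the lagging strand polymerase delta, differed less, by -0.89 and -0.28.

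The sliding clamp and its loader showed smaller differences. All 6 genes had a negative difference and none was 2-fold apart, with a median of -0.41. The scanner range left out 0 for Pcna, Rfc3 and Rfc5 and included it for Rfc1, Rfc2 and Rfc4. Pcna, the clamp that tethers the polymerases and a common marker of proliferating cells, was bright, with 3036 in the Ad-378 pool and 6007 in the Ad-Ctrl pool (-0.78). The 5 subunit genes of the clamp loader, Rfc1 to Rfc5, spanned -0.68 (Rfc3) to -0.13 (Rfc1). Rfc2 had -0.34 and Rfc5 -0.44. Rfc4 was the only gene of the set with more than 1 probe above background, and its probes gave -0.38 and -0.27.

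Single-strand binding and lagging strand maturation genes lay closely together around 2-fold lower. Lig1, the ligase that joins Okazaki fragments, had a signal of 250.1 in the Ad-378 pool, against 763 in the Ad-Ctrl pool (-1.41). Rpa1, the large subunit of the protein that coats single strands, had 1975 with Ad-378 and 4601 with Ad-Ctrl (-1.02). With the series matrix and with normexp it lay just inside 2-fold, at -0.95 in both. Rpa2, the middle subunit, had 112 with Ad-378 and 245 with Ad-Ctrl (-0.92). Fen1, the nuclease that trims the flaps, had 415 with Ad-378 and 895 with Ad-Ctrl (-0.91).

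Genes of deoxynucleotide supply differed less than those of licensing. None of the 5 was 2-fold apart, and their median was -0.58. Both subunit genes of ribonucleotide reductase, which makes all deoxynucleotides, were lower by like amounts. Rrm1 had 1079 in the Ad-378 pool and 1859 in the Ad-Ctrl pool (-0.58), and Rrm2 1589.6 and 2894 in the same order (-0.66). Dut, which removes dUTP and yields the precursor of thymidylate, had 644 with Ad-378 and 1202 with Ad-Ctrl (-0.70). Tk1, the S phase thymidine kinase, had 1340.5 in the Ad-378 pool and 1866 in the Ad-Ctrl pool (-0.27). Tyms, the thymidylate synthase, had 2251 with Ad-378 and 2469 with Ad-Ctrl (0.07, and -0.00 with median scaling or loess).

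Uhrf1 and Polh are not core fork components, and both were at least 2-fold lower. Uhrf1 reads hemimethylated DNA behind the fork and brings in the maintenance methyltransferase. Its signal was 47.8 in the Ad-378 pool, against 301 in the Ad-Ctrl pool, 5.48-fold lower (-2.45). Another Uhrf1 probe, at 2.32 with Ad-378 and 3.18 with Ad-Ctrl, was above background in neither pool. Polh is the translesion polymerase eta, which copies past ultraviolet damage. It had a signal of 19.9 in the Ad-378 pool, against 299.9 in the Ad-Ctrl pool, 13.1-fold lower (-3.71). Only 11 of all measured genes lay below it. The sizes of both changed with the background treatment. Polh had -2.00 with the series matrix and -1.65 with normexp, and Uhrf1 had -1.66 and -1.53. With both, Mcm6 (-2.45 each) had the largest difference of the set in place of Polh.

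**Figure D4:**
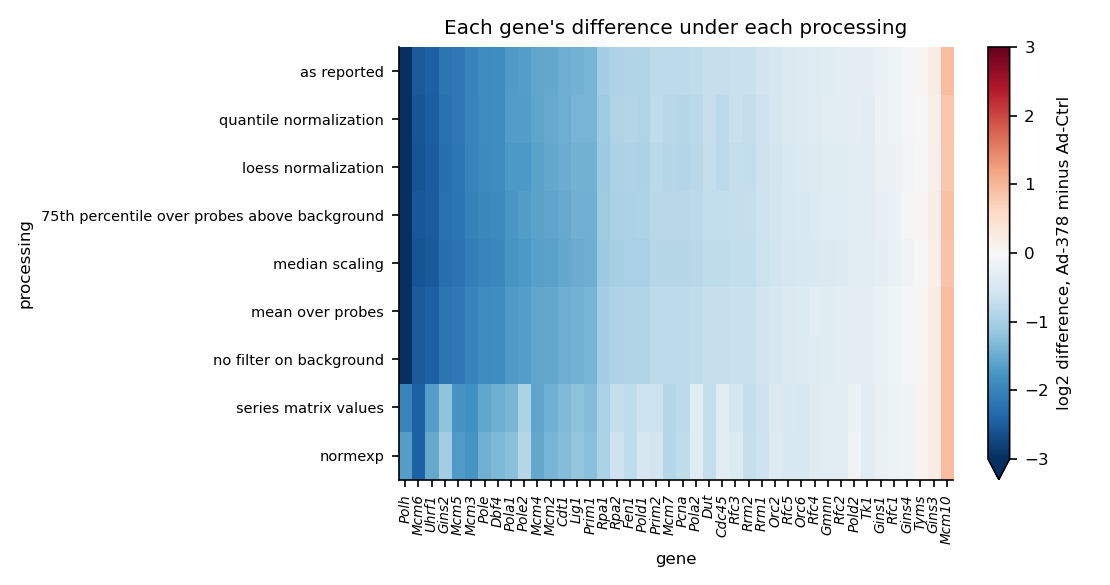
Log2 difference (Ad-378 minus Ad-Ctrl) of the 42 measured genes, in columns ordered as reported, under each processing in rows. Blue is lower with Ad-378 and red higher, and values below -3 share the darkest blue. The lowest 2 rows, which start from the raw median signal, are paler for dim genes such as Polh, Gins2 and Pole2, while Mcm6 is as dark as in the other rows.

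Further genes of the same processes were described from lists. Of 12 chromatin assembly and cohesion genes, 8 were at least 2-fold lower and 0 at least 2-fold higher, against 4.52% and 2.83% of all genes. Their median was -1.41, and -0.85 with normexp. Dtl, the adaptor of the ligase that degrades Cdt1 at PCNA, had a dim signal of 11.9 in the Ad-378 pool, against 130 in the Ad-Ctrl pool. Its difference was -3.25, with a scanner error of 0.35. Esco2, the cohesin acetyltransferase of S phase, had 60.8 with Ad-378 and 556 with Ad-Ctrl (-2.99). Chaf1a, the large subunit of the histone chaperone CAF-1, differed by -2.23 and the remodeller Hells by -1.87. Both were dim with Ad-378 (23.5 and 22.1). Nasp, a histone chaperone, differed by 0.01.

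Of 28 measured genes in a list of other origin and fork factors, 2 (7.14%) were at least 2-fold lower, near the 4.52% of all genes. The median was -0.19, and 21 of the 28 had a negative difference, against 46.1% of all genes. The 2 genes were Chtf18 (-1.88), of an alternative clamp loader, and Topbp1 (-1.17), which helps to fire origins and activates the kinase ATR. Chtf18 was dim with Ad-378 (22.9). Ticrr and Clspn, which were above background in the Ad-Ctrl pool only, had bounds of 2.42-fold and 2.26-fold lower with Ad-378.

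Nucleotide synthesis outside the 5 supply genes showed 0 of 30 measured genes at least 2-fold apart in either direction. Their median was 0.07, but -0.03 under quantile and -0.06 under loess normalization. The list covers purine and pyrimidine synthesis, one-carbon enzymes and salvage kinases. Cad, which catalyses the first steps of pyrimidine synthesis, was detected with Ad-378 but not with Ad-Ctrl, and had a bound of 2.96-fold higher with Ad-378.

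A list of translesion, repair and mitochondrial polymerase genes showed 0 of 13 measured genes at least 2-fold apart, with a median of -0.10. It also holds accessory genes such as Mad2l2, and Polrmt, the mitochondrial RNA polymerase. Polk, also a Y-family polymerase like Polh, differed by -0.74, and the family members Rev1 and Poli by -0.16 and -0.10. Polq, the polymerase of end joining, was above background in the Ad-Ctrl pool only, with a bound of 2.87-fold lower with Ad-378. Replication checkpoint genes had 0 of 11 at least 2-fold apart and a median of 0.05, which was -0.02 on arrays scaled by their medians. Cad, Polq, Ticrr, Clspn, Nasp, Polk, Rev1 and Poli were picked out after their values were seen. The bounds of Cad, Polq, Ticrr and Clspn were formed as for Orc1 and Cdc6. They leave the scanner error out, so they are not firm minimum changes.

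The nearest gene groups of the cell cycle give the setting, beside 4.52% of all genes at least 2-fold lower. Of 25 measured mitotic genes, 22 were at least 2-fold lower, with a median of -1.61. The mitotic median was -1.24 with the series matrix and -1.15 with normexp, where the licensing median was -1.39 and -1.35. The lowest mitotic genes were Cdc20 (-2.93), Aurka (-2.66), Prc1 (-2.52) and Plk1 (-2.48), which drive mitotic exit, spindle assembly and cytokinesis. Of 28 cyclin, CDK and E2F genes, 11 were at least 2-fold lower, with a median of -0.46. The lowest were Cdk1 (-2.56), its cyclins Ccnb1 (-2.25) and Ccnb2 (-2.24), and Foxm1 (-2.11), a transcription factor of mitotic genes. Of 16 measured homologous recombination and Fanconi genes, 3 were at least 2-fold lower, with a median of -0.56, which was -0.17 with normexp. Brca1, Rad54l, Exo1, Fanci and Ube2t of that list were above background in the Ad-Ctrl pool only and are not among the 16. Their bounds, which leave the scanner error out, ran from 2.05-fold (Ube2t) to 7.47-fold (Fanci) lower with Ad-378. These genes were named after their values were seen. With 1 array per group, none of these groups can be tested against the replication set.

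**Figure D5:**
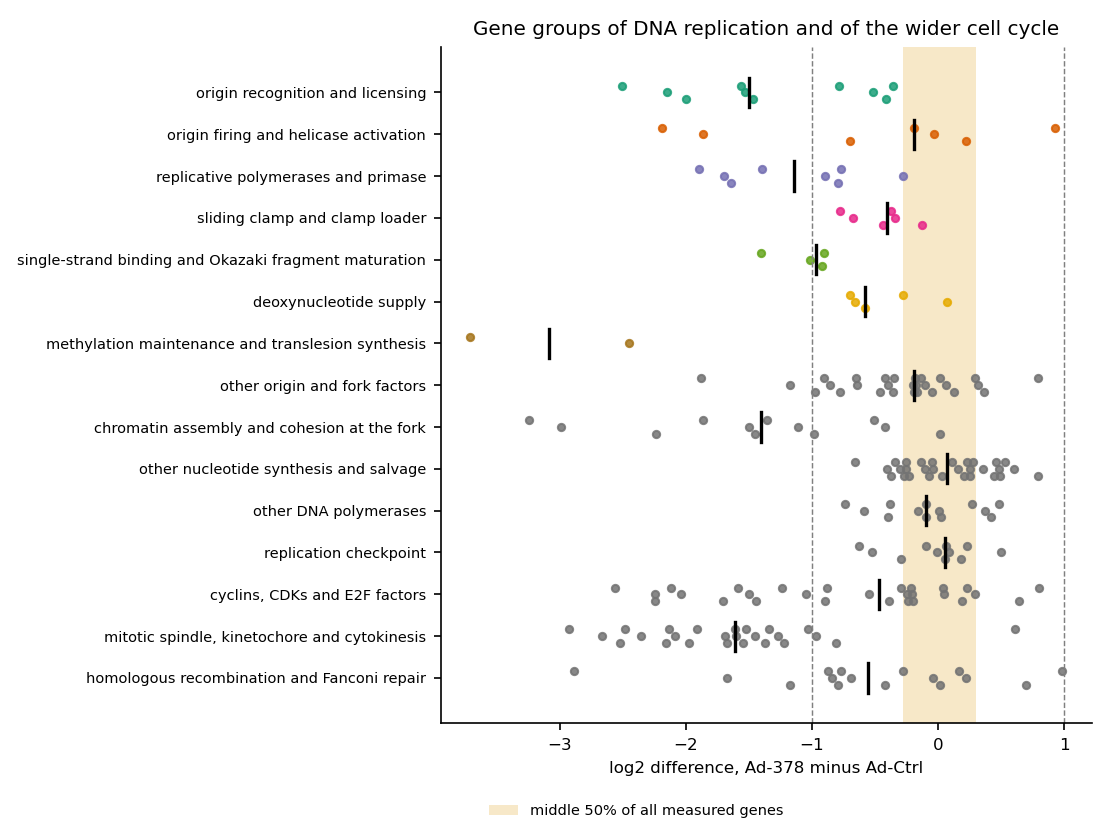
Log2 difference (Ad-378 minus Ad-Ctrl) of each measured gene by group, with the replication and nucleotide genes in colour by role and other lists in grey. Vertical ticks are medians, dashed lines mark 2-fold, and the shaded band holds the middle 50% of all measured genes. Licensing (median -1.50), chromatin assembly (-1.41) and mitotic genes (-1.61) lie left of the band, whereas other nucleotide synthesis genes (0.07) lie around it.

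Cell type markers were read from the same arrays. All 15 hepatocyte markers were above background, with a summed scaled signal of 1678 in the Ad-378 pool and 1561 in the Ad-Ctrl pool, so the tissue label holds in both. Kupffer cell and macrophage markers were lower in 14 of 14 (summed 84.5 with Ad-378 and 156 with Ad-Ctrl), with Gpnmb at -1.25 and Cd5l at -1.12. Of 12 stellate cell and fibroblast markers, 11 were lower and 6 at least 2-fold (summed 51.0 with Ad-378 and 87.4 with Ad-Ctrl), led by Col3a1 (-2.71) and Col1a1 (-2.22), with Des not above background. T and NK cell markers summed to 17.2 with Ad-378 and 17.0 with Ad-Ctrl, although 7 of 12 were lower, with a median of -0.39. Of the 12, 3 were at least 2-fold lower, Gzma (-1.33) and Gzmb (-1.25) leading. Sinusoidal endothelial markers summed to 51.5 with Ad-378 and 61.9 with Ad-Ctrl. Of these, 9 of 10 were lower, with a median of -0.23, and 0 of 10 were 2-fold apart.

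Erythroid markers summed to 50.5 with Ad-378 and 49.1 with Ad-Ctrl. Of 7 measured, Alas2 was higher (2.01), and the defining markers Epb42, Gata1 and Rhag were above background in neither pool. Neutrophil markers summed to 4.75 with Ad-378 and 4.55 with Ad-Ctrl, and 6 of 9 measured had a negative difference. Mpo (-1.26) and Mmp8 (-1.11), both dim, were at least 2-fold lower, while Elane (0.32), Ctsg (0.49) and Camp (0.27), added after their values were seen, had positive differences. B and plasma cell markers summed to 1.24 with Ad-378 and 0.671 with Ad-Ctrl, led by Jchain (1.47) and Ms4a1 (1.17), and cholangiocyte markers to 8.61 and 3.93, led by Cftr (1.75) and Spp1 (1.29). The part of any of these cells in the replication gene differences was not tested.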

How the data were processed

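RNA of 1 liver pool per group was measured on 1-colour Agilent arrays of 43020 gene spots and 1377 control spots. The authors deposited spot intensities on a linear scale, background-subtracted and detrended within each array but not scaled between arrays, per the file headers, with other values of 0 or 1 as deposited flags. Feature Extraction is given as 9.1 in the submitters' processing notes and as 11.0.1.1 in the file headers. The deposited series matrix holds intensities equal to the raw median signal in 100% of values, with column medians of 95 (Ad-378) and 103 (Ad-Ctrl).

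Control spots and 123 outlier spots per array were left out, and spots of a probe were averaged. Log2 signal was set to the 75th percentile of each array, a signal of 695 (Ad-378) and 800 (Ad-Ctrl). Of gene spots, 65.7% (Ad-378) and 63.1% (Ad-Ctrl) were well above background and 0 were saturated. Probes were named by RefSeq transcript identifier (GRCm38.p6 table, no coordinates taken from it), and a gene took its brightest probe above background on both arrays. The number of arrays limits the precision, and both arrays carry 1 scan identifier.

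No test between groups was run. The 45 genes, the lists and the naming rule (all 45, up to 4 genes of each list and 2 of each marker list at least 2-fold apart) were chosen with earlier results of these data known. Alternatives were quantile and loess (span 0.3) normalization, scaling on detected probes or on medians, the mean over probes, normexp (offset 50, limma 3.58.1), matrix values, no filter, and thresholds of 1.5-fold and 3-fold. Gaps between 2 genes under these settings were added after seeing the data. Normexp used the median signal and was fitted without outlier spots, since 1 spot with a very bright background otherwise set the Ad-Ctrl fit. Some single-gene values are not reported here. Steps were tested on simulated data. Python 3.11.15, numpy 2.4.6, pandas 2.3.3, statsmodels 0.14.6 and R 4.3.3 were used.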

Additional observations from a re-analysis of the deposited data

How the results depend on the processing

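No paired analysis was possible because there was 1 array for each group. The number of genes at least 2-fold lower stayed within 1.5 times of 16 under each of the 8 other ways of setting the values, and moved with the threshold, to 27 at 1.5-fold and 10 at 3-fold, where genes higher numbered 1 at 1.5-fold. Of the 16 genes, 14 were 2-fold lower under each of those 8, and Pole2 and Rpa1 were not. No gene inside 2-fold passed it under another. The median of the licensing genes was -1.26 with no filter on background, where Orc1 and Cdc6 enter. The polymerase and primase median was -0.80 with the series matrix and -0.71 with normexp. The median of Uhrf1 and Polh was -1.83 and -1.59 under the same settings, and the cause was not tested. Of 336 single values under the alternatives, 12 moved beyond the 95% scanner range of the reported value, all toward 0 and all with the matrix or normexp. Of the 42 genes only Tyms turned sign, under loess and median scaling. Signals near background, as for Orc1, Cdc6 and Cdc7, give a bound or no value.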
